A study of Rattus norvegicus with 127 samples.

Results

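Foxp3, Gata3, Tbx21, Nkg7 and Il2, genes that mark lymphocyte lineages or their products, were followed through injury and treatment of the rat pubocaudalis, a muscle of the pelvic floor. They are the 5 listed genes of 134 on a custom nCounter panel, a method that counts RNA molecules by barcoded probes. They were chosen by name and role, with earlier results of these data known. Adult muscle holds few lymphocytes at rest, and several classes enter it after damage. Foxp3 is the transcription factor that defines regulatory T cells, which gather in injured muscle of mice and aid its repair. Gata3 drives the type 2 helper T cell and type 2 innate lymphoid programmes, and Tbx21 (T-bet) the type 1 helper T cell and natural killer cell programmes. Nkg7 encodes a granule protein of cytotoxic T cells and natural killer cells, and Il2 the T cell growth factor interleukin-2.

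All animals were Sprague Dawley rats; the labels give neither age nor sex. The time course held 3 samples of uninjured muscle and, after a simulated birth injury (SBI), 3 samples each at days 1 and 10, 8 samples taken on day 3, and 6 for each of days 7, 31, 35 and 84. Saline or SKM, a hydrogel of skeletal muscle-derived extracellular matrix, was injected into injured muscle either immediately or after a delay. Muscle was taken 3 or 7 days after injection and, in the delayed arm, also after 8 weeks. The sample labels do not state the delay, which was taken as 28 days from the sampling days of the later SBI groups. The immediate arm held 9 saline and 9 SKM samples at day 3, and 9 and 8 at day 7. The delayed arm held 9 and 9 at day 3, 10 and 9 at day 7, and 5 and 6 at week 8. Whether each sample is a separate animal is not labelled; p-values therefore describe sample-to-sample spread, which may be technical.

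Total counts per sample ran from 366294 to 1824478 (median 1344374). In 3 pairs of SBI samples all 134 counts were identical, so each pair, which differed by less than sampling noise, was averaged and counted as 1 sample; 124 samples remained. The groups SBI day 84 and delayed week 8 stood apart in panel median. Their total counts of 629324 to 872262 did not set them apart, as immediate saline day 3 had a median of 748527. Panel medians averaged 8.45 to 8.51 (log2) in SBI day 84 and delayed week 8, against 9.51 to 10.95 in the other groups. Differences called at SBI day 84 and week 8, and the orders of group means, are therefore also given after centring every sample on its panel median. Values below are the deposited normalized signal, and differences are in log2(value + 1) from limma with p adjusted by Benjamini-Hochberg over 134 genes; a gene was called at an adjusted p under 0.05.

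The members had low counts. The median recovered count per sample was 128.5 for Foxp3, 41.5 for Nkg7, 20 for Gata3 and 14 for both Tbx21 and Il2, each a count of its own probe and no measure of one gene against another. Tbx21 stood at the floor of 0.1, which replaces a count of 0, in 18 of 124 samples, Il2 in 14, Gata3 in 3, and Foxp3 and Nkg7 in 0. A count of 0 at this depth allows up to 3 counts, so the floor is no proof of absence. Control probes were not available here, so low counts were not shown to lie above the background of the method either. Counting error alone gave between 3.12% (Nkg7) and 12.1% (Il2) of the variance within groups. The panel holds 0 of 17 T cell and lymphocyte surface genes looked for, such as Cd3e, Cd4 and Cd8a, so the lineage that the members stand for could not be checked by its defining markers. In bulk muscle, fewer cells of a type and less RNA per cell cannot be told apart.

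Nkg7 and Tbx21 deviated together within groups, as described below, and their upstream sequences are shown for that reason. Each is the 250 bases before the gene's start in RefSeq (GRCr8), where all 5 members had an entry, 5′ to 3′ on the gene's strand, with motif matches in capitals. The Nkg7 stretch lies at chr1:102981247-102981496, plus strand, and the Tbx21 stretch at chr10:82595254-82595503, minus strand.
Nkg7: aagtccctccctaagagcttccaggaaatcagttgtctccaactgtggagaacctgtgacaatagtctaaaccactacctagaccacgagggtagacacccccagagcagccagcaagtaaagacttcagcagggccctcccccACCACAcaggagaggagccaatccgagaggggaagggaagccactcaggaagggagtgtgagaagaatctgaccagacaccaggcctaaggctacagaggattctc
Tbx21: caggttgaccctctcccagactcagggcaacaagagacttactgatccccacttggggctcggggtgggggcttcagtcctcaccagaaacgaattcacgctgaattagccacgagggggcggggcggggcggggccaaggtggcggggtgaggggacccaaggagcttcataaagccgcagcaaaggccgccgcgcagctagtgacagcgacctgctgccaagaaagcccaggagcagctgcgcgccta
The motifs searched on both strands were GGTGTGA (T-box), GATAA (GATA factors), TGTGGT (RUNX), GGAAAA (NFAT) and TGANTCA (AP-1); none of these matches overlapped another in the 5 members. Nkg7 held 1 match, the reverse complement ACCACA of the RUNX letters, which 14.5% of all 33469 stretches of this length hold. Tbx21 and Gata3 held 0 matches. Foxp3 held 2 GATA matches and Il2 2 NFAT matches, letters found in 23.5% and 21.6% of all stretches. The T-box and AP-1 letters, in 3.22% and 6.34% of all stretches, matched 0 members. A match is a description of letters only.

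**Figure D1:**
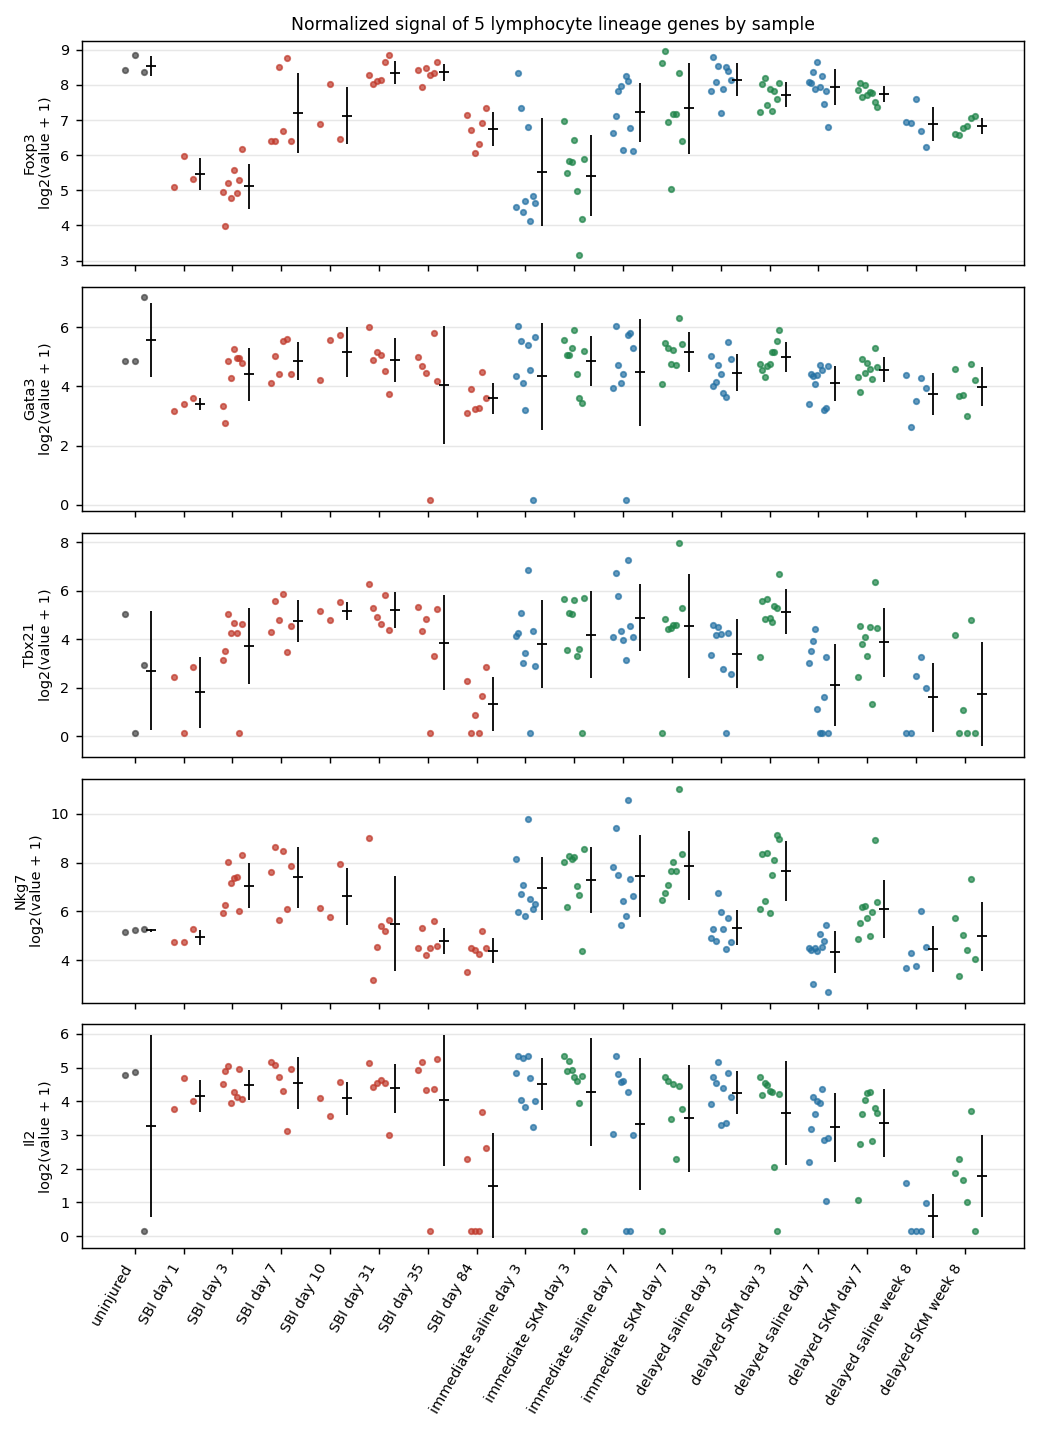
Each point is 1 sample's log2(value + 1) of the normalized signal, by group, and each bar is the group mean with its SD; grey is uninjured, red SBI, blue saline and green SKM. Foxp3 is lowest at SBI days 1 and 3 and in the immediate groups at day 3, and Nkg7 in delayed SKM at day 3 lies mostly above delayed saline.

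Foxp3 fell early after injury and stood near the uninjured level at days 31 and 35. The uninjured samples read 340.1, 463 and 327, and those of SBI day 1 read 33.3, 62.1 and 38.8. The groups did not overlap, and Foxp3 was lower by 8.44-fold, a difference of -3.08 ± 0.65 (log2, SE) (limma adjusted p = 2.45e-05). At day 3 the lowest, median and highest of 8 samples were 14.8, 33.2 and 71.7, again all below uninjured muscle, with a difference of -3.43 ± 0.54 (log2, SE) (limma adjusted p = 5.32e-08). Day 7 overlapped it, at 83.1, 93.5 and 438, and the difference of -1.34 ± 0.56 (log2, SE) passed narrowly (limma adjusted p = 0.0347). That call was lost without any 1 of the 3 uninjured samples or without SBI day 7 replicate 1, 2, 4 or 6 (limma adjusted p = 0.0532 to 0.129), and when only the compared groups were fitted (limma adjusted p = 0.139). It was also lost with the replicate number as a block (limma adjusted p = 0.05155).

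Between days 3 and 7 Foxp3 rose by 2.09 ± 0.43 (log2, SE) (limma adjusted p = 0.000132), with every day 7 sample above every day 3 sample. From day 7 to day 31 it rose by a further 1.15 ± 0.46 (log2, SE) (limma adjusted p = 0.0348), a call lost without SBI day 7 replicate 1, 2, 4 or 6 or SBI day 31 replicate 5 or 6 (limma adjusted p = 0.0684 to 0.128) and when only the compared groups were fitted (limma adjusted p = 0.155). Both immediate arms showed the earlier rise in the mean, with overlap. From day 3 to day 7 Foxp3 rose by 1.70 ± 0.37 (log2, SE) after saline (limma adjusted p = 6.61e-05). After SKM it rose by 1.92 ± 0.38 (log2, SE) (limma adjusted p = 1.99e-05). The highest saline sample of day 3 read 320.7, above every saline sample of day 7 (304.6 at most), and the fit was not repeated without it. At day 10 the 3 samples read 118, 263 and 87, below uninjured muscle, but the difference of -1.41 ± 0.65 (log2, SE) was not called (limma adjusted p = 0.142). At days 31 and 35 the differences were -0.19 ± 0.56 (log2, SE) and -0.19 ± 0.56 (log2, SE), within error of 0. At day 84 Foxp3 was lower by -1.79 ± 0.56 (log2, SE) on the deposited scale (limma adjusted p = 0.00271), where the whole panel had a median difference of -1.72, and after centring the difference was -0.02 (limma adjusted p = 0.991).

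In descending order, the group means of Foxp3 (log2 ± SD) were uninjured 8.54 ± 0.28, SBI day 35 8.36 ± 0.25, SBI day 31 8.35 ± 0.33, delayed saline day 3 8.15 ± 0.48, delayed saline day 7 7.93 ± 0.51, delayed SKM day 7 7.75 ± 0.22, then delayed SKM day 3 7.72 ± 0.36, immediate SKM day 7 7.33 ± 1.29, immediate saline day 7 7.22 ± 0.85, SBI day 7 7.20 ± 1.13, SBI day 10 7.13 ± 0.82, delayed saline week 8 6.89 ± 0.50, and last delayed SKM week 8 6.83 ± 0.23, SBI day 84 6.75 ± 0.49, immediate saline day 3 5.52 ± 1.54, SBI day 1 5.47 ± 0.46, immediate SKM day 3 5.41 ± 1.16, SBI day 3 5.11 ± 0.64. No 2 neighbours in this order differed by more than the larger of their SDs. After centring, the groups of week 8 and day 84 stood near the top: delayed saline day 7 led at -1.57 ± 0.64, followed by delayed SKM week 8 at -1.62 ± 0.32, delayed saline week 8 at -1.62 ± 0.51, uninjured at -1.69 ± 0.57 and SBI day 84 at -1.70 ± 0.57 (centred log2 ± SD). On that scale 3 pairs of neighbours differed by more than the larger SD: delayed SKM day 7 over delayed SKM day 3, SBI day 10 over SBI day 1, and SBI day 1 over SBI day 3. The 3 genes whose centred means were most alike over the 18 groups were Mylk2, a kinase of skeletal muscle (r = 0.986), Tmod1, which caps the thin filaments of muscle (r = 0.973), and Fgf2, a growth factor (r = 0.971), each given as a description. None of them is a lymphocyte gene. At SBI day 3, Mylk2 changed by -3.70 ± 0.72, Tmod1 by -2.53 ± 0.43 and Fgf2 by -3.19 ± 0.50 (log2, SE; limma adjusted p = 3.96e-06, 2.58e-07 and 5.24e-08). Of the 5 muscle fibre markers on the panel, 4 fell and 0 rose at that time, when 47 of all 134 genes were called lower and 52 higher. Their summed signal ran from 1061788.7 to 1202831.6 in uninjured muscle and from 60573.7 to 462093.6 at SBI day 3, with 0 values at a count of 0. Within groups, too, Foxp3 deviated with Mylk2 (Pearson r = 0.63 (adjusted permutation p = 2.14e-05), Spearman rho = 0.658 (adjusted permutation p = 2.50e-05), 124 samples). What part fibre RNA has in the Foxp3 signal was not tested.

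**Figure D2:**
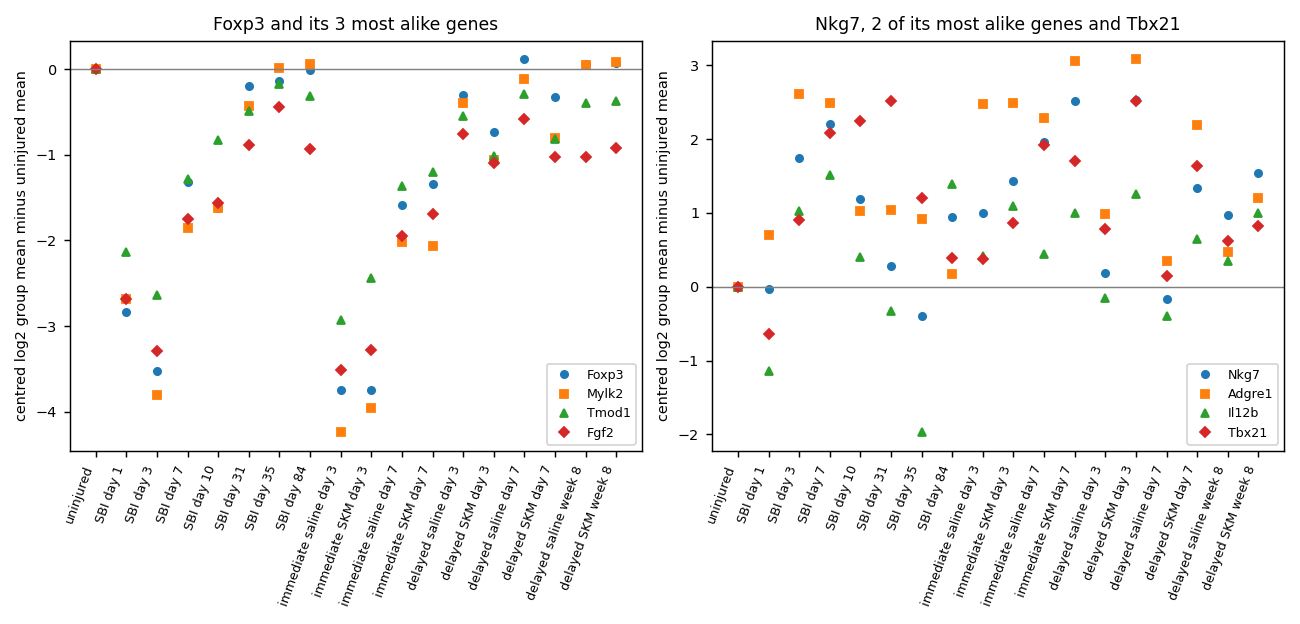
Group means of log2(value + 1), centred on each sample's panel median, are plotted as the difference from the uninjured mean for 18 groups. Left, Foxp3 falls and returns with Mylk2, Tmod1 and Fgf2; right, Nkg7 is shown with Adgre1, Il12b and Tbx21.

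Gata3 was lower at day 1 and was not called at days 3 to 35 on the deposited scale. The uninjured samples read 27.9, 28.4 and 130.3 and those of day 1 8.1, 9.66 and 11.3, with no overlap. The difference was -2.18 ± 0.83 (log2, SE) (limma adjusted p = 0.0164); without the highest uninjured sample, replicate 3, it was -1.46 (limma adjusted p = 0.153), and without SBI day 1 replicate 1 it was -2.07 (limma adjusted p = 0.0522). So 2 of the 5 members, Foxp3 and Gata3, were called lower at day 1, where 64.9% of the panel was called. At day 3 Gata3 differed by -1.18 ± 0.69 (log2, SE) (limma adjusted p = 0.112), which was called with a pseudocount of 10 (-0.91, limma adjusted p = 0.0343) and with voom weights on recovered counts (-1.34, adjusted p = 0.025). The authors' deposited table gives log2 fold changes of -1.58 at day 3 and -1.04 at day 7, with q-values of 0.0006 and 0.02. Where matched, the authors' fold changes, quoted here and below, followed log2 ratios of linear group means. Such ratios give more weight to a high sample, such as the uninjured 130.3, than the mean log2 differences used here. Gata3 differed at day 35 by -1.54 ± 0.72 (log2, SE) (unadjusted p = 0.034, limma adjusted p = 0.69). At day 84 it was lower by -1.98 ± 0.72 (log2, SE) (limma adjusted p = 0.00944), and after centring by -0.21 (limma adjusted p = 0.927); without uninjured replicate 3 it was -1.26 on the deposited scale (limma adjusted p = 0.153). Its group means (log2 ± SD) ran from uninjured 5.59 ± 1.25 down to SBI day 1 3.41 ± 0.22, and after centring from delayed SKM week 8 at -4.46 ± 0.55 down to immediate saline day 3 at -6.61 ± 1.88. On neither scale did 2 neighbours differ by more than the larger SD. The most alike genes over group means were Foxo1, Timp4 and Angpt1 (r = 0.823, 0.785 and 0.772).

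Tbx21 was not called on any injury day with all samples. It read 31.9, 0.1 and 6.6 in uninjured muscle and 35.1, 26.6 and 45.3 at day 10, so the uninjured samples spanned the floor and a value near those of day 10. At day 31 the lowest, median and highest values were 19.5, 33.7 and 76.6, and the difference of 2.52 ± 1.10 (log2, SE) had an unadjusted p of 0.0244 and a limma adjusted p of 0.233. At days 7 and 10 it was 2.06 ± 1.10 (log2, SE) and 2.46 ± 1.27 (log2, SE) (limma adjusted p = 0.103 and 0.188). Without uninjured replicate 1, the highest of that group, the day 7 difference was 3.23 and was called (limma adjusted p = 0.029). In the authors' deposited table Tbx21 has a log2 fold change of 1.65 at day 31 with a q-value of 0.08. Group means (log2 ± SD) ran from SBI day 31 5.22 ± 0.74 down to SBI day 84 1.32 ± 1.12, and after centring from delayed SKM day 3 at -5.01 ± 0.85 down to SBI day 1 at -8.17 ± 1.24. The most alike genes were Agrn, Irf4 and Mmp2 (r = 0.791, 0.776 and 0.756); Irf4 is a transcription factor of activated lymphocytes and of macrophages.

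Nkg7 rose at days 3 and 7 after injury. The uninjured samples read 34.5, 36.6 and 37.9 and those of day 1 26.1, 26.2 and 38.3. The lowest, median and highest values were 59.8, 153 and 316 at day 3 and 48.8, 214 and 400.4 at day 7, all above every uninjured sample. The differences were 1.84 ± 0.80 (log2, SE) and 2.17 ± 0.83 (log2, SE) (limma adjusted p = 0.0327 and 0.0225). With Foxp3 lower, 2 of the 5 members were called at day 3 and 2 at day 7, where 73.9% and 57.5% of the panel were called. Leaving out any 1 of the 3 uninjured samples, or SBI day 3 replicate 3 or 9, took the day 3 adjusted p to between 0.0527 and 0.0794. Leaving out uninjured replicate 1 or 2 or SBI day 7 replicate 2 took that of day 7 to between 0.053 and 0.0678. The day 3 call was also lost with voom weights on recovered counts (adjusted p = 0.125) and with the replicate number as a block (limma adjusted p = 0.0714). The day 7 call was lost with voom weights (adjusted p = 0.0739) and with only the compared groups fitted (limma adjusted p = 0.0697).

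From day 1 to day 3 Nkg7 rose by 2.12 ± 0.80 (log2, SE) (limma adjusted p = 0.0272), the 1 member called where 35.1% of the panel was called. After centring the limma adjusted p was 0.0601. The call was also lost without SBI day 1 replicate 1 or 2 or SBI day 3 replicate 9 (limma adjusted p = 0.0521 to 0.0906). With voom weights (adjusted p = 0.0861) or the replicate number as a block (limma adjusted p = 0.07) it was lost too. From day 7 to day 31 it fell by 1.89 ± 0.68 (log2, SE; limma adjusted p = 0.0215), 1 of 2 members called (Foxp3 the other) where 41.8% of the panel was called. The day 31 samples read 8.23, 38.6 and 519.6 (lowest, median, highest), so 1 sample stood far above the rest. This call was lost without SBI day 7 replicate 1, 2, 4 or 6 or SBI day 31 replicate 2 or 3 (limma adjusted p = 0.0507 to 0.0994), and with only the compared groups fitted (limma adjusted p = 0.163). Between days 3 and 7, and in the immediate saline and SKM arms, Foxp3 was the 1 member called, where 35.1%, 56% and 50.7% of the panel were called. Between days 7 and 10, 0 members were called against 5.22% of the panel.

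At day 10, Nkg7 differed from uninjured muscle by 1.40 ± 0.96 (log2, SE) (limma adjusted p = 0.295). None of the 5 members was called at days 10, 31 or 35, where 8.96%, 0% and 0% of the panel were called by limma; 36, 20 and 7 of 134 genes had an unadjusted p under 0.05. At day 84, 2 of 5 were called (Foxp3 and Gata3) against 80.6% of the panel, and after centring 0 of 5 against 1.49%. Over uninjured muscle and the 7 injury days, all 5 members passed the moderated F test, as did 99.3% of the panel; after centring 3 members did (Foxp3, Nkg7 and Tbx21) and 92.5% of the panel. In descending order, the group means of Nkg7 (log2 ± SD) were immediate SKM day 7 7.87 ± 1.42, delayed SKM day 3 7.66 ± 1.22, immediate saline day 7 7.44 ± 1.67, SBI day 7 7.40 ± 1.25, immediate SKM day 3 7.28 ± 1.36, SBI day 3 7.06 ± 0.91, immediate saline day 3 6.94 ± 1.28, SBI day 10 6.62 ± 1.17, delayed SKM day 7 6.09 ± 1.19, then SBI day 31 5.50 ± 1.93, delayed saline day 3 5.32 ± 0.72, uninjured 5.22 ± 0.07, delayed SKM week 8 4.98 ± 1.42, SBI day 1 4.94 ± 0.31, SBI day 35 4.79 ± 0.55, delayed saline week 8 4.47 ± 0.94, SBI day 84 4.40 ± 0.53, delayed saline day 7 4.34 ± 0.85. No 2 neighbours differed by more than the larger SD. After centring, the order ran from delayed SKM day 3 at -2.48 ± 1.20 down to SBI day 35 at -5.40 ± 0.51, again with no such pair, and SBI day 84 at -4.06 ± 0.62 stood above uninjured at -5.01 ± 0.29.

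Il2 was not called in any comparison between 2 groups with all samples on the deposited scale. It read 26.6, 28.4 and 0.1 in uninjured muscle, 1 sample being at the floor, and 12.6, 24.9 and 15.2 at day 1. Its differences on the 7 injury days ran from -1.77 (day 84) to 1.28 (day 7), with adjusted p from 0.0632 to 0.898. The day 84 difference was called without uninjured replicate 3, which is at the floor (-3.34, limma adjusted p = 0.00212), without SBI day 84 replicate 5 or 6 (limma adjusted p = 0.0241 and 0.045), with a pseudocount of 10 (-0.90, limma adjusted p = 0.033), with array weights (limma adjusted p = 0.0126) and with voom weights (adjusted p = 0.0332), whereas after centring it was 0.0008 (limma adjusted p = 0.999). At day 84 and in the week 8 groups 3 of 6, 3 of 5 and 1 of 6 samples stood at the floor. Group means (log2 ± SD) ran from SBI day 7 4.55 ± 0.77 down to delayed saline week 8 0.60 ± 0.66, with 1 pair of neighbours, delayed saline day 7 over delayed SKM week 8, further apart than the larger SD, and after centring from SBI day 7 at -5.66 ± 0.86 down to delayed saline week 8 at -7.91 ± 0.72, with 0 such pairs. Its most alike genes were Tnf, Il23a and Ccl3, with r of 0.488, 0.43 and 0.418, which fell to 0.178, 0.098 and 0.317 without the groups of day 84 and week 8.

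**Figure D3:**
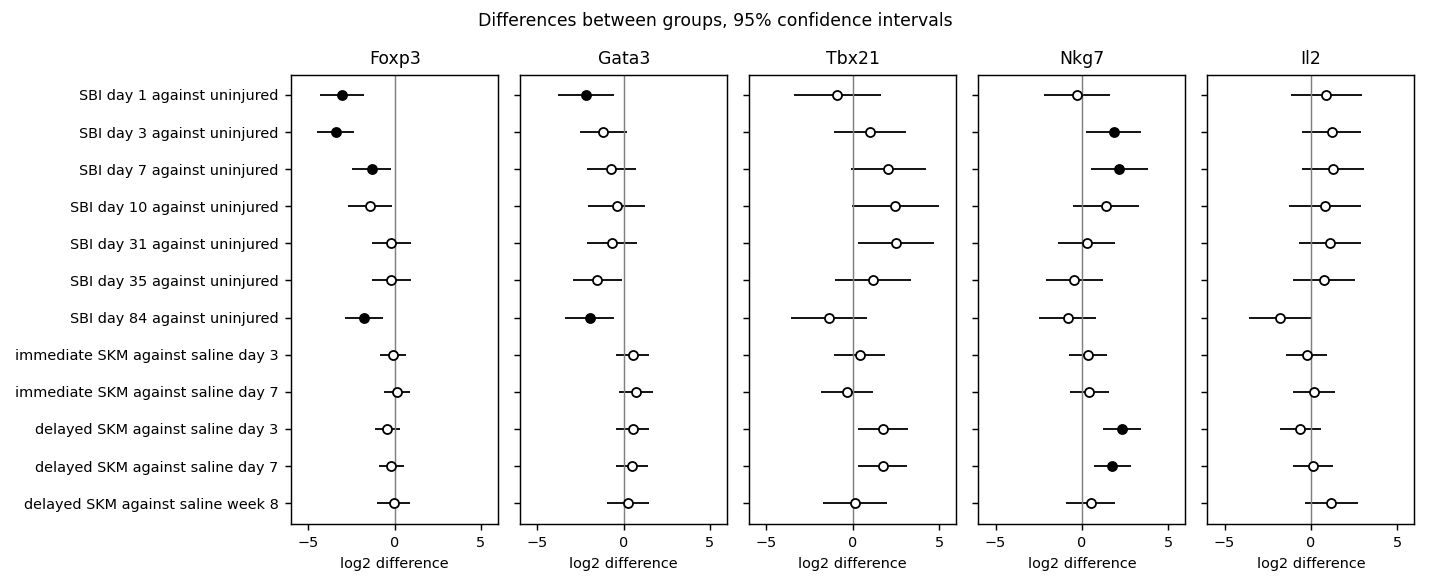
Points are limma log2 differences of each member with 95% confidence intervals, for 7 injury days against uninjured muscle and 5 comparisons of SKM against saline; filled points had an adjusted p under 0.05. Foxp3 lies below 0 at days 1, 3 and 7, and Nkg7 above 0 at SBI days 3 and 7 and under delayed SKM at days 3 and 7.

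Whether SKM changes these genes was asked against saline at the same time. Nkg7 was higher with delayed SKM. At day 3 after injection, delayed saline read 21, 37.4 and 106 and delayed SKM 60.9, 273 and 563 (lowest, median, highest). The ranges overlapped, and the difference was 2.34 ± 0.56 (log2, SE), 5.06-fold (95% interval 1.24 to 3.44; limma adjusted p = 0.00719). Nkg7 was the 1 member called, where 6.72% of the panel was called; after centring the difference was 2.33 (limma adjusted p = 0.00214) and 11.2% of the panel was called. The call held without any 1 of the 18 samples. The authors' deposited table gives a log2 fold change of 2.597 for it.

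At day 7 Nkg7 read 5.43, 21.4 and 43 with delayed saline and 28, 61.7 and 484 with delayed SKM. The difference was 1.76 ± 0.54 (log2, SE) (limma adjusted p = 0.0219), the 1 member called where 14.9% of the panel was called. It was 1.50 ± 0.52 after centring (limma adjusted p = 0.0506), where 7.46% of the panel and 0 members were called. Replicate 8 of SKM, at 484.3, was the highest by far; without it the difference was 1.40 (limma adjusted p = 0.139), and without saline replicate 3, at 7.17, it was 1.61 (limma adjusted p = 0.0602). With voom weights it was 1.88 (adjusted p = 0.0716). At week 8 the difference was 0.52 ± 0.71 (log2, SE), and 0.58 ± 0.69 after centring, and 0 of 5 members and 0% of the panel were called by limma, with 2 of 134 genes at an unadjusted p under 0.05.

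Tbx21 was higher with delayed SKM in the mean, but was not called in the main fit. At day 3 it read 0.1, 17 and 23 with saline and 8.7, 38.1 and 102 with SKM, a difference of 1.74 ± 0.73 (log2, SE) (unadjusted p = 0.0196, limma adjusted p = 0.131). At day 7 the values were 0.1, 4.6 and 20.3 and 1.5, 16.2 and 80.3, with 3 of 10 saline samples at the floor, and the difference was 1.75 ± 0.72 (log2, SE) (limma adjusted p = 0.0687). Fitted on the compared groups alone, the day 3 difference passed (limma adjusted p = 0.0218), and without delayed SKM replicate 1 or 7 the day 7 difference did (limma adjusted p = 0.0403 and 0.0388). With array weights, whose estimation did not converge, the differences at days 3 and 7 both passed (limma adjusted p = 0.00905 and 0.0166). Foxp3, Gata3 and Il2 differed by -0.43, 0.52 and -0.60 at day 3 and by -0.19, 0.46 and 0.14 at day 7 (log2), none called. At day 3 the authors' deposited table gives SKM against saline log2 fold changes of 1.614 for Tbx21 and -0.456 for Foxp3. A block headed SKM vs SBI holds nearly the same values, 1.61 and -0.45, with q-values of 0.002 and 0.01.

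With immediate SKM, 0 members were called at day 3 or day 7, as were 0% and 0% of the panel by limma; 8 and 7 of 134 genes had an unadjusted p under 0.05. Nkg7 read 54.6, 91.3 and 877 with saline and 20, 259 and 380.3 with SKM at day 3, and the difference was 0.34 ± 0.56 (log2, SE) (95% interval -0.76 to 1.44). At day 7 it was 0.44 ± 0.57 (log2, SE) (95% interval -0.70 to 1.57). Total counts differed between the immediate groups at day 3, with medians of 748527 for saline and 1668608 for SKM. The difference between the delayed and immediate effects on Nkg7 at day 3 was 2.00 ± 0.79 (log2, SE) (unadjusted p = 0.0123, limma adjusted p = 0.118), so the effects were not shown to differ. For Tbx21 at day 7 it was 2.09 ± 1.04 (log2, SE) (limma adjusted p = 0.157). In the 4 tests of differences between effects, 0 members were called and 0%, 0%, 0% and 1.49% of the panel.

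Adgre1 rose beside Nkg7 under delayed SKM. It encodes the macrophage surface protein F4/80, and differed by 2.10 ± 0.54 at day 3 and 2.10 ± 0.53 at day 7 (log2, SE; limma adjusted p = 0.00869 and 0.00877). Of the 3 macrophage markers on the panel (Adgre1, Ccr2 and Arg1), 1 rose at day 3 and 2 at day 7, where 6.72% and 14.9% of the panel were called, all higher. Their summed signal ran from 775.4 to 2285.7 with saline and from 1831.7 to 12555.6 with SKM at day 3, and from 363.1 to 1162.0 and 573.4 to 10285.6 at day 7, with 0 values at a count of 0. Of the 2 neutrophil markers (Cxcr2 and Mmp8), 0 rose at either day. Of the 5 muscle fibre markers, 0 were called at either day, but their summed signal was lower with SKM, from 349523.5 to 794871.7 against 838397.4 to 1115104.7 with saline at day 3, without overlap, and from 330743.7 to 753330.4 against 433436.6 to 892809.1 at day 7, with overlap. The genes most like Nkg7 over the 18 group means were Il12b (r = 0.829), a subunit of the cytokine interleukin-12, Adgre1 (r = 0.809) and Irf4 (r = 0.731). Within groups Nkg7 also deviated with Adgre1 (Pearson r = 0.768 (adjusted permutation p = 2.14e-05), Spearman rho = 0.727 (adjusted permutation p = 2.50e-05)). The part of macrophage number or of fibre RNA in the Nkg7 result was not tested.

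Other genes of the same pathways were read by list. Under delayed SKM, 6.72% of the panel was called at day 3 and 14.9% at day 7, all higher, against which the list counts are read. Of 5 genes of the regulatory T cell and interleukin-10 list on the panel (Foxp3, Il10, Il10ra, Tgfb1 and Il33), 3 rose and 1 fell at SBI day 3, the fall being Foxp3. At that day 73.9% of the panel was called. Under delayed SKM 1 rose at day 3 and 2 at day 7: Tgfb1, a regulatory cytokine, differed by 0.89 ± 0.27 and 1.03 ± 0.26 (log2, SE; limma adjusted p = 0.0225 and 0.00877). Of 4 type 1 and cytotoxic genes (Tbx21, Nkg7, Il12b and Tnf), 1 rose with delayed SKM at day 3 (Nkg7) and 2 at day 7 (Nkg7 and Tnf). Tnf, an inflammatory cytokine, differed by 1.17 ± 0.69 and 2.00 ± 0.67 (log2, SE; limma adjusted p = 0.229 and 0.0357), and Il12b by 1.42 ± 0.73 and 1.29 ± 0.71 (log2, SE; limma adjusted p = 0.165 and 0.181). Of the 3 type 2 genes (Gata3, Stat6 and Arg1), Stat6, the transducer of interleukin-4 signals, rose by 0.71 ± 0.22 and 0.59 ± 0.21 (limma adjusted p = 0.0225 and 0.0437). Of the 3 type 17 genes (Il23a, Il6 and Il1b), 1 rose at each time, Il1b, by 2.88 ± 0.95 and 2.53 ± 0.93 (limma adjusted p = 0.0447 and 0.049). Of the 2 genes of the interleukin-2 pathway (Il2 and Il15), 0 were called at either time. After centring, the day 7 counts were 1 of 5 regulatory, 0 of 4 type 1, 0 of 3 type 2 and 0 of 3 type 17 genes, and 2 of 3 macrophage markers. On that scale 7.46% of the panel was called at day 7, 6 genes higher and 4 lower. With immediate SKM, 0 of the genes named here were called at day 3 or day 7.

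After injury alone, 73.9% of the panel was called at day 3 (52 of 134 genes higher) and 57.5% at day 7 (41 higher), against which the list counts are read. At SBI days 3 and 7, 1 and 1 of the 4 type 1 genes rose, Nkg7 each time, and 0 fell. Of the 3 type 2 genes 2 and 1 rose, and of the 3 type 17 genes 2 and 1. Gata3 was not among them, with group means of 4.41 and 4.86 (log2) at SBI days 3 and 7 against 5.59 in uninjured muscle. Arg1, of the type 2 list, is counted among the macrophage markers too. The type 17 genes on the panel are all cytokine genes, so these counts are no measure of lymphocytes. Il1b, an inflammatory cytokine, rose by 5.10 ± 1.36 and 4.89 ± 1.42 (log2, SE; limma adjusted p = 0.000573 and 0.00336). Of the 3 macrophage markers 3 and 2 rose at those days, beside the rise of Nkg7, and their summed signal ran from 510.0 to 1069.1 in uninjured muscle and from 2084.7 to 14580.7 at day 3. What part macrophages have in the Nkg7 signal was not tested there either.

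Saline was compared with injury alone at the same age of injury, which for the delayed groups assumes the delay of 28 days. No member was called in any of the 5 comparisons: immediate day 3 (44.8% of the panel called), immediate day 7 (2.99%), delayed day 3 (2.24%), delayed day 7 (54.5%) and delayed week 8 (0%). After centring these shares were 0.746%, 0%, 2.24%, 1.49% and 0%, again with 0 members. The largest difference of a member was Tbx21 at delayed day 3, which read 0.1, 17 and 23 against 19.5, 33.7 and 76.6 at SBI day 31, a difference of -1.82 ± 0.82 (log2, SE) (unadjusted p = 0.0291, limma adjusted p = 0.258). At delayed day 7 it was -1.74 ± 0.80 (log2, SE) (limma adjusted p = 0.0592), and -1.06 ± 0.79 after centring (limma adjusted p = 0.85). That difference was called on the deposited scale without SBI day 35 replicate 4, which is at the floor (-2.48, limma adjusted p = 0.00906), without delayed saline replicate 2, 3, 4 or 9 (limma adjusted p = 0.0322 to 0.0477), with array weights (limma adjusted p = 0.000565) and with voom weights (adjusted p = 0.025). The group mean of Tbx21 was 5.14 ± 0.92 (log2, SD) in delayed SKM at day 3, beside 5.22 ± 0.74 at SBI day 31 and 3.40 ± 1.43 in delayed saline at day 3.

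Finally, it was asked which members deviate together among samples of the same group. Of 10 member pairs, 5 passed a two-sided permutation test within groups after Benjamini-Hochberg adjustment by Pearson's r, and 8 by Spearman's rho. The share of all panel pairs that would pass was not tested, so these counts are not shown to be particular to the members. The strongest member pair was Tbx21 with Nkg7: Pearson r = 0.567 (adjusted permutation p = 0.0001), Spearman rho = 0.549 (adjusted permutation p = 0.0001), over 124 samples, where the unadjusted p of 1e-05 is the smallest that 100000 permutations can give. Without the 2 samples farthest from the median of Tbx21, r was 0.569. Gata3 followed with Nkg7 (r = 0.373, adjusted permutation p = 0.0004), Il2 (r = 0.36, adjusted permutation p = 0.00387) and Tbx21 (r = 0.351, adjusted permutation p = 0.00217). Tbx21 with Il2 was the weakest of the 5 (r = 0.289, adjusted permutation p = 0.0111), and without the 2 farthest samples its r was 0.173. The 3 pairs that passed by rho alone all held Foxp3, with Gata3, Tbx21 and Il2, at rho of 0.202 to 0.206 (adjusted permutation p = 0.04704 to 0.04999). Foxp3 with Nkg7 had r = 0.0032 (adjusted permutation p = 0.976). Nkg7 had a higher r with the non-members Adgre1 (0.768) and Il12b (0.579) than with any member. Foxp3, too, had a higher r with Mylk2 (0.63) than with any member. Samples of a group differ in depth, and both genes of a pair are read from the same library.

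**Figure D4:**
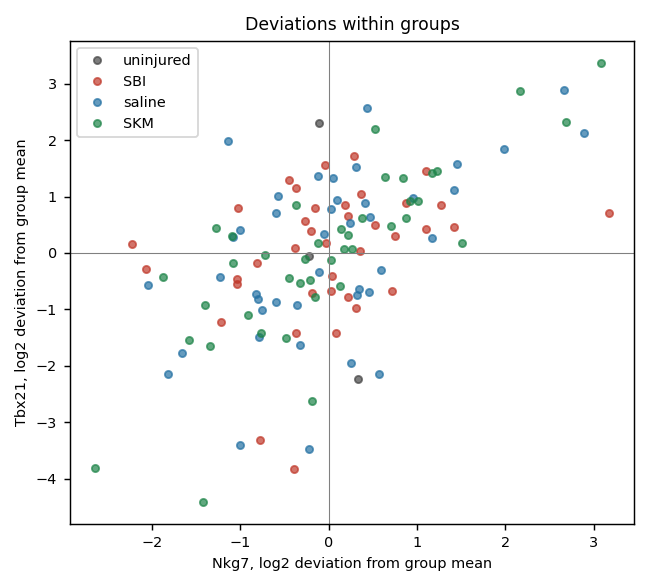
Each of 124 points is 1 sample's deviation from its group mean in centred log2(value + 1), Nkg7 on the x axis and Tbx21 on the y axis, coloured by kind of group. Samples high for Nkg7 tend to be high for Tbx21 (r = 0.567).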

How the data were processed

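Per the labels' protocols, total RNA of rat pubocaudalis was counted with a custom nCounter probe set. The authors deposited a normalized signal on a linear scale for 134 unnamed probes per sample; the sources used here do not give the software or control probes of the normalization. All 16829 values above the floor of 0.1 were whole multiples (within 0.05) of a per-sample step, from which counts were recovered. Names came from the authors' deposited workbook of log2 fold changes, p-values and q-values, by matching log2 ratios of group means. The 5 members matched with median differences of 0.0041 to 0.0072, against 0.0913 to 0.4415 for the next row. The members and gene lists were chosen with earlier results of these data known.

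Identical samples were averaged, leaving 124. All 18 groups were fitted together on log2(value + 1), which understates changes of low genes, with limma 3.58.1 in R 4.3.3 and Benjamini-Hochberg adjustment over 134 genes. The fit was run on simulated data whose noise was set below the members' SDs within groups, 0.80 (Foxp3) to 1.57 (Tbx21). That run therefore says little on how the fit performs for the members. Alternatives were centring on the panel median, a pseudocount of 10, a filter on low counts, only the compared groups, all deposited samples, array weights, the replicate number as a block, voom weights and leaving out samples. Counting error was taken from the exact Poisson variance of log2 values, at the count expected in each sample from its group's mean signal. Correlations used deviations from group means of centred values, with 100000 permutations within groups (Python 3.11.15, numpy 2.4.6, pandas 2.3.3). Named genes were the 5 members, the 3 genes most alike to each over group means, and the genes of the lists given; 1 listed gene is not reported here.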

Additional observations from a re-analysis of the deposited data

Results flagged for a closer look

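Among groups of 4 to 10 samples, 13 member values lay far from the rest of their group, with a gap to the nearest sample above Dixon's 95% critical value; chance alone flags about 1 in 20 groups, and 75 sets of values were tested. Of these, 2 were high values of Nkg7. Immediate SKM day 7 replicate 7 read 2082.65, where the others ran from 87.17 to 328.99, and delayed SKM day 7 replicate 8 read 484.34, where the others ran from 28 to 82.83.

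The other values were low. Gata3 stood at the floor of 0.1 in SBI day 35 replicate 4, immediate saline day 3 replicate 8 and immediate saline day 7 replicate 6. Tbx21 stood at 0.1 in SBI day 3 replicate 8, immediate SKM day 3 replicate 8, immediate SKM day 7 replicate 1 and delayed saline day 3 replicate 7. Il2 stood at 0.1 in SBI day 35 replicate 4 and immediate SKM day 3 replicate 9, at 1.12 in delayed SKM day 7 replicate 1 and at 6.98 in SBI day 31 replicate 6. The floor stands for a count of 0, and the 1.12 for a count of 1. SBI day 35 replicate 4 was at the floor for Tbx21 too, and had the lowest total count of its group, 647221 against a group median of 1424695.5. Of the 11 low values, 5 lay in the sample with the lowest total of its group, among them SBI day 3 replicate 8 with 366294 counts. The high Nkg7 value of immediate SKM day 7 replicate 7 also lay in the shallowest sample of its group, with 580205 counts. The part of depth in these values was not tested.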

How the results depend on the processing

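Counts of members called are given here, with the value under the main fit first, and changes of up to 1.5 times are left out of this paragraph. Among those left out, a pseudocount of 10 gained Gata3 at SBI day 3 and Il2 at SBI day 84. Voom weights gained Il2 at SBI day 84, and at SBI day 3 gained Gata3 and lost Nkg7. After centring on the panel median, SBI day 84 went from 2 to 0, SBI day 3 against day 1 from 1 to 0, delayed SKM at day 7 from 1 to 0 and the F test from 5 to 3. The filter on low counts left 3 members to test in the F test, all called. Fitted on the compared groups only, SBI day 7 went from 2 to 0, SBI day 31 against day 7 from 2 to 0 and delayed SKM at day 3 from 1 to 2. With array weights, whose estimation stopped before it converged, SBI day 10 went from 0 to 1, SBI day 84 from 2 to 4, SBI day 10 against day 7 from 0 to 1, immediate saline day 7 against day 3 from 1 to 2, immediate SKM at day 3 from 0 to 1, delayed SKM at days 3 and 7 from 1 to 2 each, delayed saline against injury from 0 to 1 at day 3 and from 0 to 2 at day 7, and the delayed minus immediate effect at day 3 from 0 to 2. Voom weights on the recovered counts, chosen after seeing the data, gave 1 in place of 2 at SBI day 7, 0 in place of 1 for SBI day 3 against day 1 and for delayed SKM at day 7, and 1 in place of 0 for delayed saline day 7 against injury. Leaving the groups of day 84 and week 8 out of the fit, also chosen after seeing the data, kept every count within 1.5 times of the main one. The causes were not tested.

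Samples of the same replicate number were not treated as pairs in the main fit, since in no comparison did every such pair correlate above 0.1. That rule cannot exclude pairing. Single pairs ran from r = -0.67 to 0.957 in immediate SKM against saline at day 7. In delayed saline week 8 against SBI day 84, 4 of 5 pairs were above 0.1. With the replicate number as a block, SBI day 3 went from 2 to 1 (Nkg7 lost) and SBI day 7 from 2 to 1 (Foxp3 lost). SBI day 3 against day 1 went from 1 to 0 (Nkg7 lost). 

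Leaving out 1 sample at a time gave 1 to 2 for SBI day 1 against uninjured, 1 to 2 for SBI day 3 against uninjured, 0 to 2 for SBI day 7 against uninjured, 2 to 3 for SBI day 84 against uninjured, 0 to 1 for SBI day 3 against SBI day 1, 0 to 2 for SBI day 31 against SBI day 7, 0 to 2 for delayed SKM against saline day 7, 0 to 2 for delayed saline day 7 against SBI day 35 and 4 to 5 for moderated F over uninjured and 7 SBI days, and the main count in each of the other 17 comparisons. At SBI day 84 without uninjured replicate 3, Gata3 was lost and Il2 gained, so the count of 2 hides a change of genes. Immediate saline day 3, immediate SKM day 3 and immediate saline day 7 were not left out one by one. Over all 135 member differences and 2721 refits, the sign changed 183 times, 0 times for a called difference; in 1 of these refits (array weights, Foxp3, immediate SKM at day 3) the changed value was itself called. Of the differences printed above, Il2 changed sign after centring at SBI day 84 (0.0008) and in delayed SKM at day 7 (-0.119), where leaving out 1 sample gave -0.11 to 0.42. Leaving out 1 sample gave -0.28 to 2.09 for Il2 at SBI day 7 and -0.0132 to 0.64 for Nkg7 in immediate SKM at day 7 (the lowest without SKM replicate 7). Of the 10 correlations, 5 were called by Pearson's r under each of the 3 alternatives; by Spearman's rho 8 were called, and 6 on the deposited scale, 9 with a pseudocount of 10 and 3 without the groups of day 84 and week 8. Both planned edgeR fits were not run; voom weights on the recovered counts were used in their place. Depth limits Tbx21, Il2 and Gata3 most, whose counts were under 10 in 47, 44 and 24 of 124 samples.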

Other observations

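In the authors' deposited table, Foxp3 at SBI day 1 carries a log2 fold change of -3.07 with a p-value of 0.84 and a q-value of 9.7e-09, which cannot both belong to 1 test. For Nkg7 at SBI day 31 the authors' deposited table gives a log2 fold change of 1.63, where the mean of log2 values used here gives 0.28; 1 of the 6 samples read 519.6 and the group median was 38.6.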
